A study of Saccharomyces cerevisiae with 5 samples.

Results

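Large ribosomal subunit assembly was followed through the mRNAs of 39 assembly factors in budding yeast (Saccharomyces cerevisiae), with and without the VTS1 gene. The factors were chosen by name, as factors and helicases of 60S assembly, with earlier results of these data known. Each was read from the probe set that carries its symbol in the platform annotation. Where a gene had more than 1, the probe set with the highest mean signal was used. All 39 were found among the 5656 genes that had a probe set of their own, and all 39 passed the filter on dim probe sets. The wild type group (2 arrays) is BMA64, a laboratory strain, and the deletion group (3 arrays) is a vts1 deletion in BMA64. All 5 arrays carry the same treatment entry, which names VTS1 and a chemical transfection, and the number of deletion clones is not stated. Both groups were grown in SD medium, a synthetic glucose medium, at 30 degrees and harvested at an optical density (OD600) of 0.4, in steady state per the labels. The question is which mRNA levels depend on the presence of Vts1. Vts1 is an RNA-binding protein whose SAM domain recognises hairpins in mRNA.

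The large subunit of the ribosome is made in the nucleolus, where RNA polymerase I transcribes a long precursor RNA that is folded, modified and cut while ribosomal proteins are added. Many assembly factors act on the particle and leave it again before it takes part in translation, among them helicases, methyltransferases, GTPases and scaffold proteins. In yeast their genes are known as a regulon of ribosome biogenesis, whose mRNAs rise in fast growth and fall under stress or starvation. The values here are mRNA signals and say nothing directly of the amount of the proteins or of ribosomes.

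The label of the deletion group was checked on VTS1 itself, which read 4952 and 5079.9 in the wild type group and 19, 17.8 and 55 in the deletion group. The 5 arrays had been scaled to an equal mean signal before deposit, and these values cannot show whether cells held more or less mRNA in all. Background levels, set at the 95th percentile of 28 controls for foreign or opposite-strand RNA, lay between 98 and 166.7, and the lowest signal of any member on any array was 884.4. For actin, the control probe set at the 3' end over that at the 5' end, a sign of RNA length, gave a ratio of 1.34 and 1.17 (wild type) and 1.51, 1.35 and 1.25 (deletion). Its part in the results was not tested. Nothing in the labels says whether the arrays came from separate cultures, so the p-values reflect array-to-array spread that may be technical in part or in full.

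Most of the 39 genes gave lower signals in the deletion strain, by small amounts. The log2 change (deletion minus wild type) was below 0 for 36 members and above 0 for 3, with a median of -0.28, a range from -0.56 to 0.15 and quartiles of -0.37 and -0.19. Over all 6294 probe sets tested the median was -0.04, and 54.8% were below 0. The median of the members corresponds to a signal 17.5% lower than in the wild type. No member reached a change of 2-fold. Errors given with log2 changes are standard errors of the fit (n = 3 deletion and 2 wild type arrays).

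After adjustment over all probe sets tested, 4 members fell and 0 rose (limma, adjusted p under 0.05). They were DBP9, a DEAD-box helicase, NOP8, an RNA-binding nucleolar protein, RLP24, a relative of a ribosomal protein, and NOP16, an assembly factor of the nucleolus. The 4 are 10.3% of the members, beside 3.05% of all probe sets that fell and 4.39% that rose. At an unadjusted p under 0.05, 18 members were lower and 0 higher (limma), which is 46.2% of the members beside 11.1% of all probe sets lower and 10.3% higher. In 26 members, 66.7% of them, all 3 deletion arrays lay below both wild type arrays, and in 0 all 3 lay above. Among all probe sets tested 21.7% separated downward and 16.8% upward. The median standard error of the log2 change was 0.13 for the members and 0.17 over all probe sets.

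The shift was seen on each deletion array. Relative to each gene's mean log2 signal in the wild type, the median of the 39 members was -0.31 on deletion array 1, -0.27 on deletion array 2 and -0.29 on deletion array 3. The same median over all probe sets tested was -0.05, -0.04 and 0.00. Of the 39 members, 33 lay below both wild type arrays on deletion array 1, 33 on deletion array 2 and 30 on deletion array 3, while 1, 0 and 2 lay above both. Those below were 84.6%, 84.6% and 76.9% of the members, beside 43.5%, 41.2% and 37.2% of all probe sets tested on the same arrays, of which 34.0%, 29.9% and 35.6% lay above both. The members above both were SPB4 on deletion array 1 and MAK5 and SPB4 on deletion array 3. The wild type arrays differed from each other by a median of 0.17 in size, with 18 members higher on array 1 and 21 higher on array 2. The change between strains was larger in size than that difference in 33 of 39 members (84.6%), beside 51.2% of all probe sets tested.

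**Figure D1:**
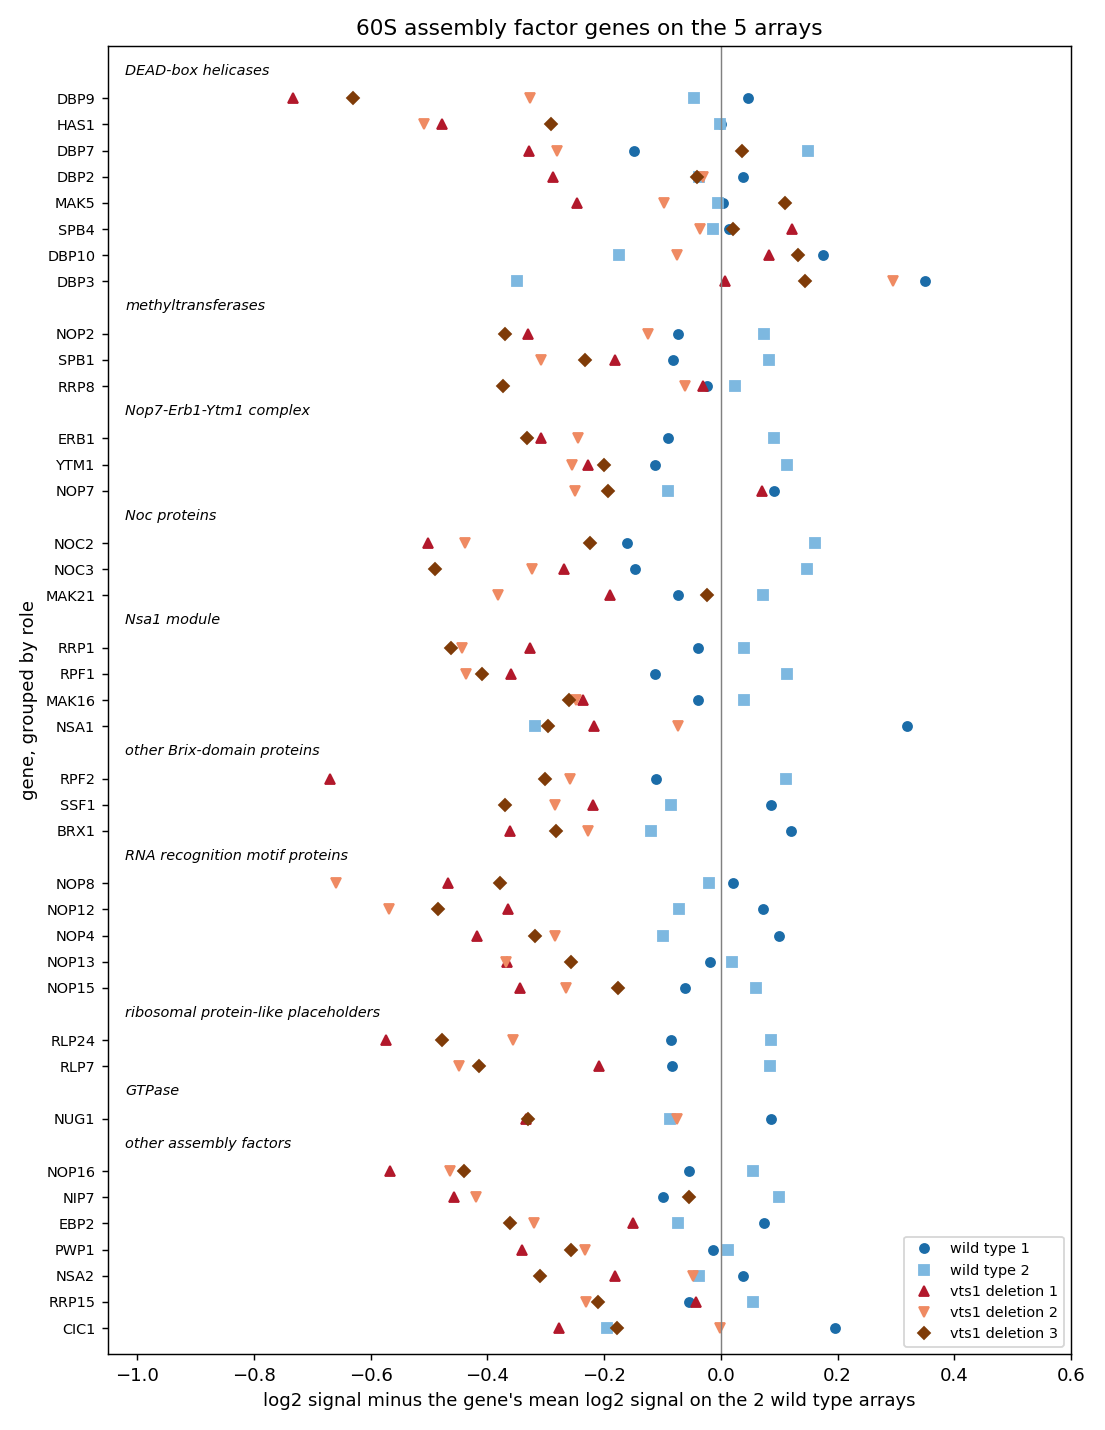
Log2 signal of each of the 39 genes on each array, minus the gene's mean log2 signal on the 2 wild type arrays (x axis); genes are grouped by role and ordered by change within a role, and each marker is 1 array. The deletion arrays (triangles and diamonds) lie to the left of both wild type arrays in 26 genes, and the helicases at the top are the role with the most genes that overlap.

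The DEAD-box helicases, ATPases that unwind or remodel RNA in the precursor particle, were the only role with log2 changes on both sides of 0. Of 8, 1 fell (12.5%, beside 3.05% of all probe sets) and 0 rose (beside 4.39%), and the median log2 change was -0.10. The arrays of the groups overlapped in 6, and 2 separated downward (25%, near the 21.7% of all probe sets tested). DBP9 (YLR276C), needed early in large subunit assembly, had the lowest log2 change of all members. Its signals were 4530.5 and 4246 (wild type) and 2638, 3495 and 2835 (deletion), and the log2 change was -0.56 ± 0.14, adjusted p = 0.0349. Every deletion array lay below both wild type arrays, deletion array 2 being nearest to them. HAS1, a helicase that acts on both ribosomal subunits, gave 6064 and 6055 (wild type) and 4349, 4259 and 4955 (deletion). The wild type pair was almost equal and the highest deletion array stood 18.2% below the lower of them, but the change missed the threshold (-0.43 ± 0.12, adjusted p = 0.0587). It passed with the stricter filter on dim probe sets (adjusted p = 0.048) and with array weights (adjusted p = 0.028), and its adjusted p ranged from 0.028 to 0.242 over 17 alternatives.

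The other 6 helicases had no call and overlapping arrays. DBP2, which also takes part in nonsense-mediated mRNA decay, had signals of 15727 and 14937 (wild type) and 12555, 15002 and 14907 (deletion). It was the only member with another probe set of its own, and the log2 change was -0.12 ± 0.12 at the first and -0.17 ± 0.13 at the other (adjusted p = 0.623 and 0.507). DBP7, needed for early large subunit particles, had a log2 change of -0.19 ± 0.15, and MAK5, named from a screen for maintenance of killer virus, one of -0.08 ± 0.14 (adjusted p = 0.523 and 0.8). The 3 members with a change above 0 were all helicases: DBP3 (0.15 ± 0.18), DBP10 (0.05 ± 0.14) and SPB4 (0.04 ± 0.13), with adjusted p = 0.696, 0.885 and 0.901. DBP3 had 5468.5 and 3370.1 (wild type) and 4315, 5266.5 and 4742.5 (deletion), and its wild type pair lay further apart than the means of the strains. SPB4, which acts on nucleolar large subunit particles, had 2836 and 2782 (wild type) and 3057, 2741 and 2851 (deletion), and the 95% interval of its log2 change ran from -0.24 to 0.31. For DBP10 and DBP3 the interval ran from -0.27 to 0.36 and from -0.25 to 0.55. Without wild type replicate 2 the log2 changes of DBP3 and DBP10 were below 0, and that of SPB4 was without deletion replicate 1.

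**Figure D2:**
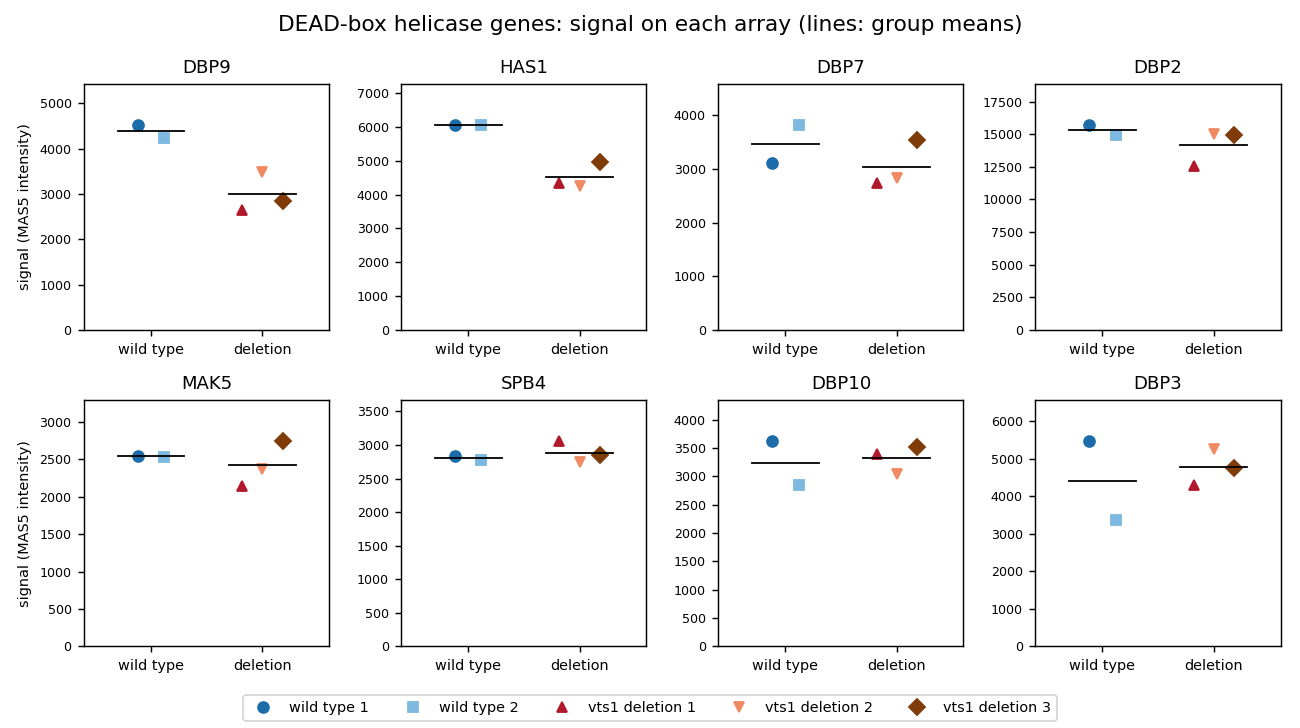
Signal (MAS5 intensity, linear axis from 0) of the 8 DEAD-box helicase genes on each array; markers are arrays and horizontal lines are group means, in order of log2 change from DBP9 at -0.56 to DBP3 at 0.15. The groups are apart in DBP9 and HAS1 and overlap in the other 6.

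Each of the 3 methyltransferases was lower on all deletion arrays than on both wild type arrays, as were 21.7% of all probe sets tested. Of the 3 enzymes 0 had a call, beside 3.05% of all probe sets called lower. These enzymes methylate the large subunit rRNA: Nop2 and Rrp8 modify bases, and Spb1 modifies a ribose at the site where peptide bonds are made. NOP2 gave 6214 and 6878 (wild type) and 5202.5, 5997 and 5062 (deletion), a log2 change of -0.27 ± 0.13, adjusted p = 0.238. SPB1 gave 3049.5 and 3419.5 (wild type) and 2849, 2609 and 2749.6 (deletion) (-0.24 ± 0.13, adjusted p = 0.321). RRP8 showed the smallest change of the 3, -0.16 ± 0.13 (adjusted p = 0.545), and its arrays stood apart by only 0.481%: deletion array 3, at 7041, was low, while deletion arrays 1 and 2, at 8925 and 8742, were close to the wild type at 8968 and 9277.

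Nop7, Erb1 and Ytm1 form a complex on the precursor particle that is needed to process an internal spacer of the precursor RNA. Of the 3 genes 0 had a call (limma), and 1 had an unadjusted p under 0.05, beside 3.05% and 11.1% of all probe sets lower. ERB1 had signals of 13859 and 15728 (wild type) and 11927, 12455 and 11724 (deletion) (-0.30 ± 0.12, adjusted p = 0.161), and YTM1 of 9669 and 11307 (wild type) and 8927, 8757 and 9102 (deletion) (-0.23 ± 0.12, adjusted p = 0.301). In both, the 3 deletion arrays lay close together below the wild type pair, and 21.7% of all probe sets tested separated downward. NOP7 did not separate: deletion array 1, at 1820.1, lay between the wild type arrays at 1845 and 1628. Its log2 change was -0.12 ± 0.16 with a 95% interval from -0.46 to 0.21.

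Noc2 pairs with Mak21 (also named Noc1) in the nucleolus and with Noc3 as the precursor moves on to the nucleoplasm. NOC2, the partner common to both pairs, had 1119.5 and 1399 (wild type) and 884, 924 and 1072 (deletion), with a log2 change of -0.39 ± 0.17, adjusted p = 0.225. NOC3 had 1469 and 1801 (wild type) and 1351, 1300 and 1158 (deletion) (-0.36 ± 0.16, adjusted p = 0.218). For each of these the 3 deletion arrays lay below both wild type arrays, as in 21.7% of all probe sets tested. The wild type pair itself differed by 1399 against 1119.5 for NOC2. MAK21 overlapped, with deletion array 3 at 2424 between the wild type arrays at 2344 and 2594, and had a log2 change of -0.20 ± 0.15 (adjusted p = 0.485).

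Nsa1, Rpf1, Mak16 and Rrp1 sit together on the outer face of the early particle. RRP1 gave 2939.5 and 3106 (wild type) and 2409.8, 2221 and 2193 (deletion), a log2 change of -0.41 ± 0.13, adjusted p = 0.0843. RPF1, which has a Brix domain, an RNA-binding fold of several assembly factors, gave 1699 and 1986 (wild type) and 1431, 1357 and 1383 (deletion) (-0.40 ± 0.15, adjusted p = 0.133). MAK16 had the smallest SD among deletion arrays of the 39 genes, 10.2, with signals of 1308, 1298 and 1288, below 1500.3 and 1585 for the wild type (-0.25 ± 0.14, adjusted p = 0.358). Of the 4 genes 0 had a call (limma) and 3 separated downward (75%), beside 3.05% and 21.7% of all probe sets tested. NSA1 overlapped between groups. Its wild type arrays read 2558 and 1645, and the 3 deletion arrays, at 1764, 1950.2 and 1671, lay between them. The log2 change of NSA1 was -0.20 ± 0.18, and it turned to 0.12 without wild type replicate 1. RRP1 passed the threshold in 1 of the 17 alternatives, array weights (adjusted p = 0.0475).

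The other Brix-domain proteins, Brx1, Rpf2 and Ssf1, separated downward in all 3 cases, each with an unadjusted p under 0.05 and 0 with a call (limma). Of all probe sets tested, 21.7% separated downward, 11.1% were lower at that unadjusted p and 3.05% were called lower. RPF2, which brings the 5S RNA particle to the large subunit, gave 10285 and 12001 (wild type) and 6987, 9289.6 and 9011 (deletion) (-0.41 ± 0.14, adjusted p = 0.121). Deletion array 1 was the low one of the 3. SSF1 gave 3496 and 3104 (wild type) and 2830.3, 2704 and 2549 (deletion) (-0.29 ± 0.13, adjusted p = 0.224). For its near-identical copy SSF2 the annotation gives another probe set, whose name ends in _f_at and not in plain _at as for the members. The signals of that probe set were 991 and 1025 (wild type) and 746, 1089 and 735 (deletion) and overlapped between groups (-0.26 ± 0.20, adjusted p = 0.509). Whether each probe set reads only its own copy was not tested. BRX1, a partner of Ebp2, had a log2 change of -0.29 ± 0.13 (adjusted p = 0.208).

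Proteins with RNA recognition motifs bind the precursor RNA directly, and all 5 of their genes separated downward, beside 21.7% of all probe sets tested. Of these 5 genes 1 fell (20%, beside 3.05% of all probe sets). At an unadjusted p under 0.05 (limma) 4 were lower (80%, beside 11.1%). NOP8 (YOL144W) gave 3018 and 2933 (wild type) and 2151, 1883 and 2288 (deletion), a log2 change of -0.50 ± 0.14, adjusted p = 0.0476. Its highest deletion array stood 22.0% below the lower wild type array, and deletion array 2 was the lowest. NOP12, involved in processing of the precursor RNA, gave 1627 and 1474 (wild type) and 1202.5, 1044 and 1107 (deletion) (-0.47 ± 0.15, adjusted p = 0.0939). It passed the threshold in 1 of the 17 alternatives, array weights (adjusted p = 0.0456). NOP4, an essential protein of early particles, had a log2 change of -0.34 ± 0.13, NOP13, a relative of Nop12, one of -0.33 ± 0.12, and NOP15, which binds the second internal spacer, one of -0.26 ± 0.12 (adjusted p = 0.156, 0.117 and 0.239).

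Rlp24 and Rlp7 resemble ribosomal proteins: Rlp24 holds the place that Rpl24 takes later, and Rlp7 is a relative of Rpl7. RLP24 (YLR009W) fell, from 7363 and 8286 (wild type) to 5246.5, 6100.1 and 5607 (deletion) (-0.47 ± 0.12, adjusted p = 0.039). RLP7 gave 3375 and 3789 (wild type) and 3093, 2619.6 and 2683 (deletion) and missed the threshold (-0.36 ± 0.14, adjusted p = 0.149). In both genes all 3 deletion arrays lay below the wild type pair. Of all probe sets tested, 21.7% separated downward and 3.05% were called lower. NUG1, a nuclear GTPase, was the only member of its role. Its signals were 8242.5 and 7309 (wild type) and 6159.7, 7367 and 6171 (deletion), so that deletion array 2 lay just above the lower wild type array, and its log2 change was -0.25 ± 0.13, adjusted p = 0.304.

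Among the 7 remaining factors, all with a log2 change below 0, 1 fell (14.3%) and 4 separated downward (57.1%). The shares over all probe sets tested were 3.05% and 21.7%. NOP16 (YER002W) gave 6054 and 6536 (wild type) and 4246, 4563 and 4635 (deletion), a log2 change of -0.49 ± 0.12, adjusted p = 0.0281, the smallest adjusted p of the 39. The gap between its groups, 23.4% of the lower wild type array, was the widest among the members. NIP7, which binds Nop8, gave 2483 and 2851 (wild type) and 1938, 1990.3 and 2562.5 (deletion) (-0.31 ± 0.16, adjusted p = 0.287). Deletion array 3 of NIP7 lay between the wild type arrays, while the other two deletion arrays were well below both. PWP1, a WD-repeat protein, and EBP2, which stood apart between groups like PWP1, had log2 changes of -0.28 ± 0.11 and -0.28 ± 0.13 (adjusted p = 0.18 and 0.236). NSA2 separated by only 0.643%, with a log2 change of -0.18 ± 0.12. RRP15 and CIC1, the last also named Nsa3, overlapped between groups, with -0.16 ± 0.13 and -0.15 ± 0.15. The adjusted p was 0.439 for NSA2, 0.536 for RRP15 and 0.6 for CIC1, and the change of CIC1 turned to 0.04 without wild type replicate 1.

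**Figure D3:**
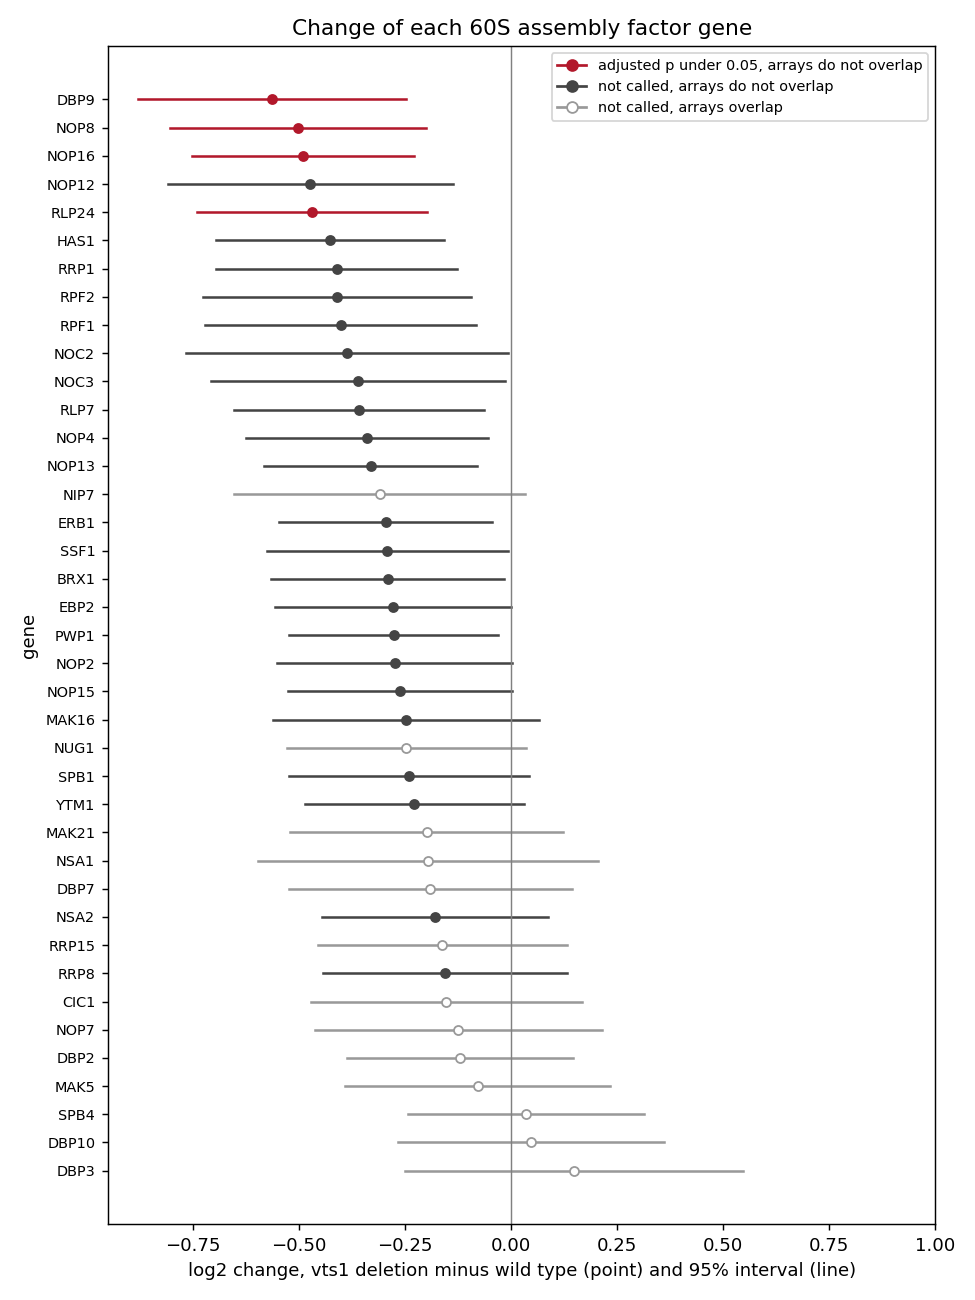
Log2 change of each of the 39 genes (deletion minus wild type; point) with its 95% interval (line), in order of change. Red marks the 4 genes with an adjusted p under 0.05, filled points the 26 genes whose deletion arrays all lay below both wild type arrays, and open points the 13 whose arrays overlapped.

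The 4 calls depended on which arrays were used. When single arrays were left out, 2 members fell for wild type replicate 1, 0 for wild type replicate 2, 1 for deletion replicate 1, 1 for deletion replicate 2 and 0 for deletion replicate 3. NOP16 kept its call without wild type replicate 1 or deletion replicate 1, RLP24 without wild type replicate 1, DBP9 without deletion replicate 2, and NOP8 lost its call whichever array was left out. With no filter on dim probe sets, or with no variance trend, all 4 calls were lost. DBP9 lost its call with array weights (adjusted p = 0.0701), and NOP8 with quantile normalization and with cyclic loess (adjusted p = 0.065 in each). Over the 17 alternatives the adjusted p ranged from 0.0191 to 0.139 for NOP16, from 0.0322 to 0.206 for RLP24, from 0.0222 to 0.198 for DBP9 and from 0.0188 to 0.215 for NOP8. The direction of these 4 did not turn under any of the 17, and the median log2 change of the members stayed between -0.32 and -0.23.

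Other factors of 60S assembly were taken from a list of 45 genes, written from textbook knowledge but with earlier results of these data known. Of these 4 fell and 0 rose (limma; 8.89%, beside 3.05% and 4.39% of all probe sets), 39 had a log2 change below 0, 24 separated downward (53.3%, beside 21.7%) and 0 upward (beside 16.8%), and the median log2 change was -0.25. RRS1, which acts with Rpf2 to bring in the 5S RNA particle, gave 2776 and 2924 (wild type) and 1713, 2094 and 1717 (deletion) (-0.64 ± 0.14, adjusted p = 0.0183). LOC1, an RNA-binding protein that also serves mRNA localisation, gave 5852.5 and 4334 (wild type) and 3538, 3452 and 3337 (deletion) (-0.55 ± 0.14, adjusted p = 0.0381). MAK11, needed for large subunit assembly, had 2317.5 and 2222 (wild type) and 1541, 1658.5 and 1582 (deletion) (-0.51 ± 0.14, adjusted p = 0.0406), and FPR4, a nuclear proline isomerase, 7349 and 6365 (wild type) and 5065, 4969 and 5061 (deletion) (-0.44 ± 0.12, adjusted p = 0.0448). All 3 deletion arrays lay below both wild type arrays for each of the 4. With 1 deletion array left out, the 4 calls of this list became 2 for replicate 1, 2 for replicate 2 and 0 for replicate 3. Fits with a lone wild type array are not listed here. The calls became 0 with no filter on dim probe sets or no variance trend. At the other end REI1, a cytoplasmic factor, had the highest log2 change of the 45, 0.16 ± 0.19 (adjusted p = 0.668).

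**Figure D4:**
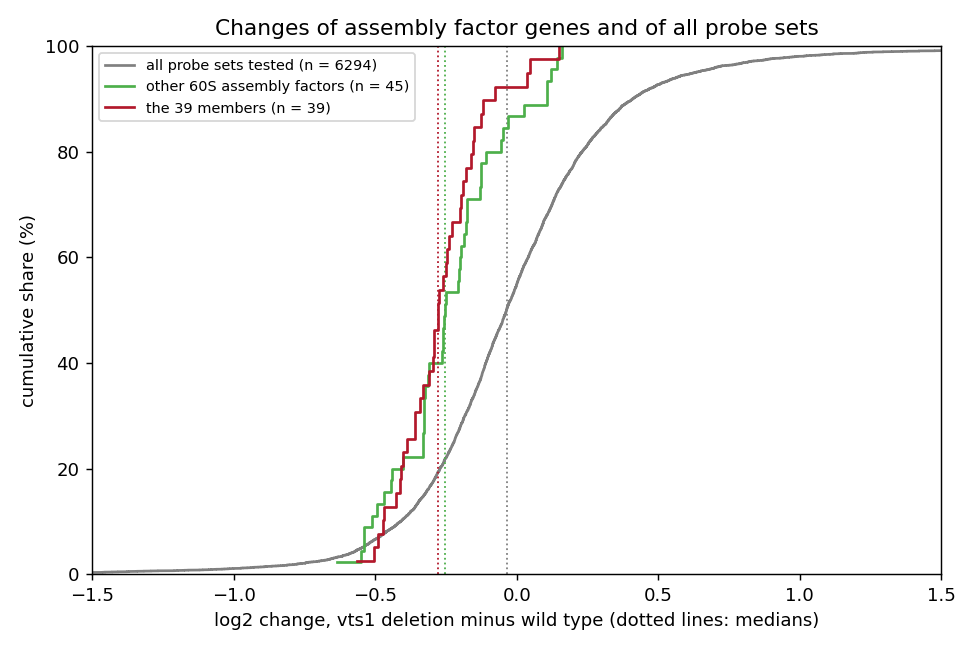
Cumulative share of genes or probe sets (y axis, %) with a log2 change (x axis, deletion minus wild type) up to a given value, for the 39 members, the 45 other 60S assembly factors and all 6294 probe sets tested. The axis leaves out the outermost probe sets, and dotted lines mark the medians of -0.28, -0.25 and -0.04.

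In the reference gene order no member lay next to another member, and no annotated gene overlapped one. The array also carries control probe sets for the rRNA of both subunits, with 5 for each. For 25S rRNA, the large subunit RNA that these factors help to fold, the 2 bright probe sets overlapped between groups: 90694 and 99531 (wild type) against 108560.1, 92990 and 88898 (deletion) for the brightest, and 34957 and 42818 against 36576, 47534 and 45416 for the next. A dim 25S probe set, near the background level, separated downward, with 192.9 and 233.8 against 180.3, 160.6 and 147. For 18S rRNA, of the small subunit, 1 of 5 probe sets separated, with 2989 and 3617 against 1052, 1049 and 1061. The probe sets of 25S rRNA had wild type means from 27 to 95113, and the arrays had been scaled to an equal mean. These control signals were not taken as a measure of rRNA amount. Their part in the members' values was not tested.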

How the data were processed

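RNA of 5 yeast samples was measured on single-colour Affymetrix arrays, 2 of the wild type and 3 of the deletion strain. The authors deposited 1 intensity per probe set and array, linear and not logged, made with MAS5 per the submitters' processing notes (version not given in the sources used here). Trimmed means, leaving out 2% of probe sets at either end, ran from 2502.47 to 2502.68, so no further scaling was applied.

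Of 9335 probe sets, 60 controls were left out. Signals under 50.1 (trimmed mean divided by 50) were raised to it before taking log2. A mean of at least 250.3 (divided by 10) was required, and 6294 probe sets were tested with limma 3.58.1 in R 4.3.3 (lmFit; eBayes with a variance trend; group as the only term; 3 residual degrees of freedom, prior 9.02), two-sided, with Benjamini-Hochberg adjustment over all of them and a threshold of 0.05. Each fold is a log2 change on intensity values the authors deposited. The number of arrays limits the precision.

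Names are those of the platform annotation, and all 6504 probe sets with 1 gene matched the reference table by identifier. The members and the lists were chosen with earlier results of these data known. Signals on every array were set to be given for called members, for the 2 members of each role with the largest change and for all members of roles with fewer than 3. Signals of DBP2, DBP3, SPB4, MAK16, NSA1, RRP8, NOP7, MAK21 and SSF2, and the change of REI1, were added after their values were seen. Normalization, floor, filter, variance model, array weights, a replicate block, single arrays left out and a mean over a gene's probe sets were varied in turn. Promoter motifs and protein identities between copies were not analysed here.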

Additional observations from a re-analysis of the deposited data

How the results depend on the processing

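The 4 members that fell became 0 with no filter on dim probe sets, with no variance trend and with the replicate block (limma; 21, 12 and 14 members were lower at an unadjusted p under 0.05), and between 0 and 2 with 1 array left out. The share of all probe sets at that unadjusted p was not taken without the filter, without a variance trend or with the replicate block. With array weights 6 fell, namely HAS1, NOP8, NOP12, NOP16, RLP24 and RRP1, while DBP9 was no longer called. Lower calls over all 6294 probe sets tested rose as well with array weights, from 192 to 255. With quantile normalization and with cyclic loess 3 fell, NOP8 being no longer called. Beside them, 207 of all probe sets fell with quantile normalization and 195 with cyclic loess. Under each of the 17 alternatives 0 rose. The 4 calls of the other 60S factors became 2 with quantile normalization, 2 with cyclic loess, 0 without the filter, 0 without a variance trend, 0 with the replicate block and 0 to 3 with 1 array left out. The median log2 change of the members was -0.25 with quantile normalization and -0.25 with cyclic loess, and lay between -0.32 and -0.23 with 1 array left out, against -0.28. Over all probe sets, the 192 that fell and 276 that rose became 51 and 54 without the filter and 69 and 149 with the replicate block, and 106 fell without a variance trend. With arrays left out, between 94 and 161 fell and between 176 and 320 rose. The filter acts before the fit and bears on the variance trend as well as on the adjustment. With it 6294 probe sets were tested, against 9275 without it. The cause of the differences between settings was not tested. A fit without 1 wild type array takes the lone one to vary like the deletion arrays.

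The replicate numbers of the titles were not taken as pairs, since the labels do not state a pairing. Deviations of same-numbered arrays from their group means correlated at -0.066 and -0.074 over the probe sets tested. With 2 wild type arrays, the deviations of the wild type are mirror images. The 2 values are therefore not separate checks and cannot decide on pairing. The block leaves 1 residual degree of freedom. Under the block NOP16, NOP8, RLP24 and DBP9 had adjusted p = 0.0854, 0.089, 0.104 and 0.143. Directions that turned belonged to members with no call: DBP10 with array weights (-0.007), and 6 members with 1 array left out. With arrays left out the log2 change lay between -0.20 and 0.50 for DBP3, -0.13 and 0.22 for DBP10, -0.51 and 0.12 for NSA1, -0.35 and 0.043 for CIC1, -0.17 and 0.0056 for MAK5, and -0.0068 and 0.072 for SPB4. In 621 of 663 combinations of a member and an alternative the direction and the side of the threshold were those reported. Most of these belong to members without a call in any setting. The rest were 31 lost calls, 4 gained calls and 7 turned directions. All lost calls were of the 4 called members. NOP16 kept its call in 11 of the 17 alternatives, RLP24 in 10, DBP9 in 9 and NOP8 in 7.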
